A study of Mus musculus with 9 samples.

Results

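The 42 genes described here encode proteins of the S phase and of the G2 and M phases of the cell cycle. They were taken by symbol from the deposited table of 16299 genes, and all 42 were present. They comprise 17 S phase genes, 23 mitotic genes and 2 genes of chromatin proteins, Hmgb2 and Ezh2, that are often counted with proliferation genes. The RNA came from pigment cells of mouse skin, melanocytes that had been purified from the epidermis by flow cytometry. Each of 3 groups held 3 libraries. Control tail melanocytes came from Spry1flox/flox mice, whose Spry1 alleles are floxed. Knockout tail and knockout back melanocytes came from Spry1flox/flox mice that also carry k14-Cre-ERT2, a tamoxifen-inducible Cre driven by the keratin 14 promoter. All groups therefore share the floxed alleles, no group lacks them, and there is no control from back skin, so an effect of genotype and one of body site cannot be told apart in the back libraries when they are set against control tail. The keratin 14 promoter is active in basal keratinocytes, which makes the neighbours of the sorted cells the target of the deletion. The labels do not give age, sex, the tamoxifen schedule or whether replicates are separate animals, and the spread behind each p-value is that between libraries, which may be technical.

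DNA replication begins when a ring of MCM2 to MCM7 proteins is loaded at origins by CDC6 and CDT1 and is then activated as the replicative helicase. PCNA clamps the polymerases to DNA, and ribonucleotide reductase, made of RRM1 and RRM2, supplies the deoxynucleotides. Many of these genes are transcribed by E2F factors at the border of G1 and S phase. Genes of mitosis, such as the B cyclins and the spindle and checkpoint proteins, are transcribed later. Many of their promoters hold CHR and CCAAT elements. Most melanocytes of adult epidermis divide rarely, and fewer cycling cells and less of a transcript in each cycling cell cannot be told apart in bulk RNA.

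The elements named above were sought in the 250 bases before the transcription start, on both strands, in RefSeq promoters of build GRCm38.p6, which matched 35 of the 42 genes. The E2F letters searched were TTTCGCGC, TTTGGCGC, TTTCCCGC and TTTGCCGC, the CHR letters TTTGAA and TTCGAA, and the CCAAT box CCAAT. The sequences of 2 S phase genes with E2F letters and 2 mitotic genes with CHR letters are shown because they carry the motifs by which the groups are usually told apart. They are written 5′ to 3′ along the gene, with matches to any of the motifs in capitals. The windows lie at chr8:75109259-75109508 on the plus strand for Mcm5, chr1:128359706-128359955 on the minus strand for Mcm6, chr9:70421555-70421804 on the minus strand for Ccnb2 and chr4:118437344-118437593 on the minus strand for Cdc20.
Mcm5: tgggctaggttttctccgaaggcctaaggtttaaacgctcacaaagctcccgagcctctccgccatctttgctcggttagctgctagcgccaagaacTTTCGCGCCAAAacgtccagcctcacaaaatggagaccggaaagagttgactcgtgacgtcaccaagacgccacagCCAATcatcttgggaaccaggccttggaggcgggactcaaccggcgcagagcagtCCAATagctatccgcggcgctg
Mcm6: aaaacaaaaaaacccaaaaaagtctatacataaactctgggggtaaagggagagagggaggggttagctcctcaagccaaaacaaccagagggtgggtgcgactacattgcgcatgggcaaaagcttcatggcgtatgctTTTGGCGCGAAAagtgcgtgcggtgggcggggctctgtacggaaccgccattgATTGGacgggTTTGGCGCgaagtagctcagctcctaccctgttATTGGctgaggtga
Ccnb2: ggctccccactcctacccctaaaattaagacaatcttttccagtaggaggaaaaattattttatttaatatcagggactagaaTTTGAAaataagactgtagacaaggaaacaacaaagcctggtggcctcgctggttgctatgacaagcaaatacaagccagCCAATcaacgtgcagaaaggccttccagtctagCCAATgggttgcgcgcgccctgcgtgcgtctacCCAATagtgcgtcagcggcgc
Cdc20: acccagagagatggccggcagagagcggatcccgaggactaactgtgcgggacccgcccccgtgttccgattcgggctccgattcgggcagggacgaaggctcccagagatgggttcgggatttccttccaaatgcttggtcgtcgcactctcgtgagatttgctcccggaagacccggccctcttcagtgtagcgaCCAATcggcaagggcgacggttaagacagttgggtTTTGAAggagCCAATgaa
In Mcm5 the capitals first show a pair of overlapping E2F matches, 1 on each strand, and later 2 CCAAT boxes. Mcm6 holds 3 E2F matches, of which 2 overlap, and 2 CCAAT boxes read on the opposite strand. Ccnb2 holds 1 CHR match 167 bases before the start, upstream of its 3 CCAAT boxes. Cdc20 holds 1 CHR match 18 bases before the start and 2 CCAAT boxes. E2F letters were present in 4 of the 14 S phase promoters and 1 of the 19 mitotic promoters, against 2.16% of all 27025 promoters. CHR letters were in 2 of 14 and 8 of 19, against 19.6%, and the CCAAT box was in 8 of 14 and 17 of 19, against 37.5%. These are matches of letters, and the data hold no measure of binding at them.

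The values below are normalised counts, which are whole read counts recovered from the deposited log2 values and divided by a size factor for each library. Recovered totals were 45.7 to 67.9 M (mega) counts per library. Libraries 1 and 2 of knockout back stood apart: 4628 and 6127 genes had 0 counts there, against 854 to 1739 in the other 7. Library 3 of knockout tail and library 3 of knockout back also stood apart, since the deposited values had a shift removed between these 2 and the other 7. The shift was on average positive for the genes described here. The 2 libraries were higher than the 7 by a median log2 difference of 0.72 for S phase genes and 0.61 for mitotic genes. The median over all genes was 0.16, and the 7 include the sparse back libraries, which were low in many of these genes. On recovered counts plus 8, knockout tail library 3 had a median log2 ratio to libraries 1 and 2 of −0.19 for S phase genes. This ratio was 0.29 for mitotic genes and 0.05 for all genes. Removal of a positive shift lowered both libraries 3 against the other 7. Melanocyte genes were high in every library, with 7 marker genes summing to between 653710 and 990274 normalised counts. Basal keratinocyte markers, 10 of 10 in the table, summed to 53695 to 157615 in the controls, to 58438, 26990 and 429892 in knockout tail libraries 1, 2 and 3, and to 90091 to 241106 in the back libraries. Markers of Langerhans and myeloid cells, 9 of 10 in the table, summed to 155 to 486 in the controls, 595 to 10624 in the knockout tail libraries and 7169 to 24347 in the back libraries, and their part in the results was not tested. Sex-linked genes differed between the groups and also within the knockout tail group. Ddx3y, on the Y chromosome, had 0 counts in all 3 controls and in knockout tail library 3, 1393 and 2266 counts in knockout tail libraries 1 and 2, and 1177, 137 and 2302 in the back libraries. Eif2s3y, also on the Y chromosome, had 154, 0 and 9 counts in the controls. It had 4890, 5677 and 0 in the knockout tail libraries and 3275, 2543 and 3922 in the back libraries. Xist, from the inactive X chromosome, had 5354, 1711 and 4908 counts in the controls, 5, 19 and 6364 in knockout tail libraries 1, 2 and 3, and 1313, 1266 and 2699 in the back libraries. Ddx3y, Eif2s3y and Xist were thus present in every back library. The part of sex in the results was not tested. Spry1 itself had normalised counts of 1510, 1074 and 1285 in the controls, 3590, 1758 and 587 in the knockout tail libraries and 2283, 0 and 746 in the back libraries, which gives no check of deletion because the Cre is not aimed at melanocytes and the deleted part is not given.

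**Figure D1:**
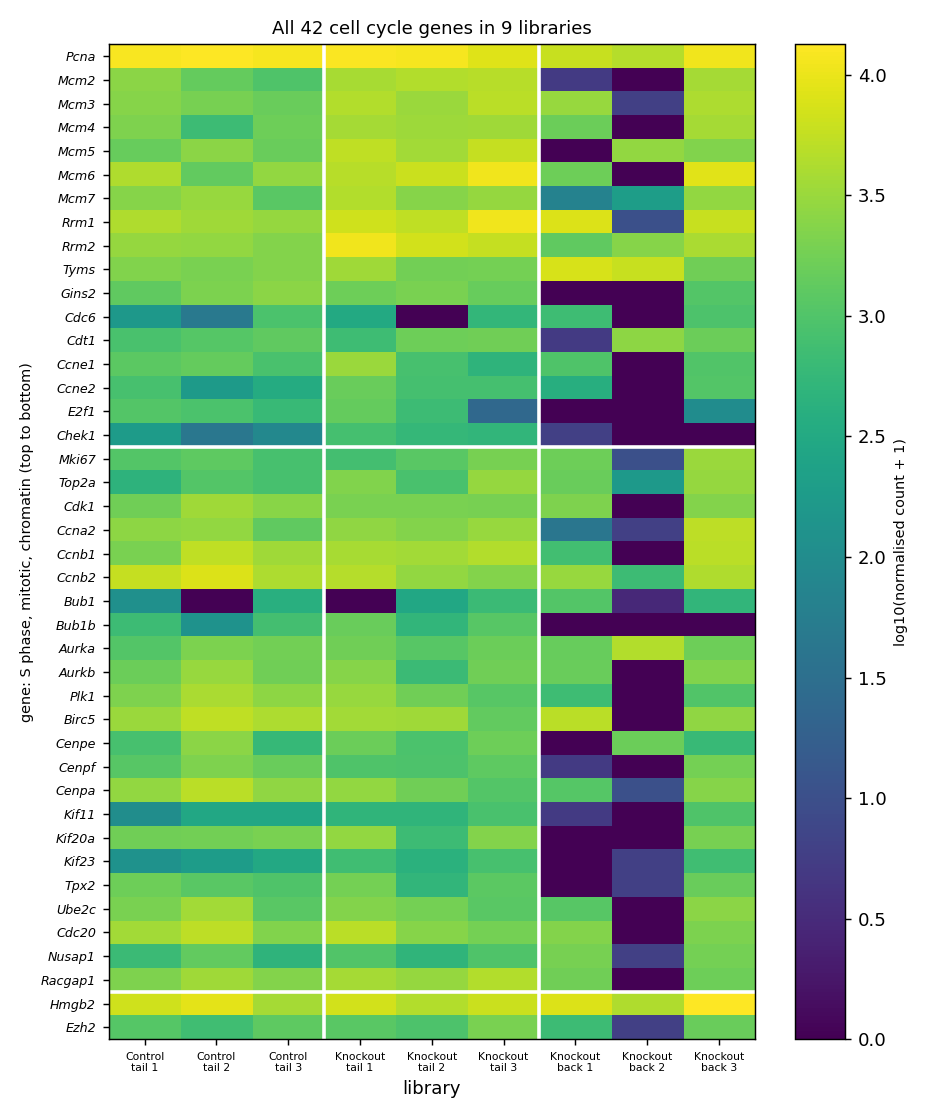
Level of all 42 genes (rows) in the 9 libraries (columns), as log10 of the normalised count plus 1, with white lines between the gene groups and the sample groups. The dark cells are concentrated in knockout back libraries 1 and 2, where 13 and 31 of the 42 genes lay below 10 normalised counts.

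In control tail melanocytes the cell cycle genes were all detected, at levels that differed widely. Per kilobase of exon, Pcna was the highest of the 42 genes at 5200 normalised counts per kb and Chek1 the lowest at 21.8, and the median was 413. Among mitotic genes the highest per kilobase was Ccnb2 at 3942 and the lowest Kif23 at 26.4. Some reads of Pcna, Tyms, Ccnb1 and Ccnb2 could belong to processed copies of these genes that are annotated in the mouse genome, and the labels do not say how the authors' counting treated such reads. The only zeros in the 6 tail libraries were Bub1 in the second control and the first knockout library and Cdc6 in the second knockout library.

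The first comparison asked how melanocytes of knockout tail epidermis differ from those of control tail epidermis. Among the S phase genes, 8 of 17 had all 3 knockout tail libraries above all 3 control libraries in normalised counts: Mcm2, Mcm3, Mcm4, Mcm5, Mcm6, Rrm1, Rrm2 and Chek1. Over all genes, 9.7% had this order. Among the mitotic genes it was 2 of 23, Kif11 and Kif23. No member of either group had all 3 knockout tail libraries below the controls, where 9.31% of all genes did. None of the 42 genes passed the limma test at an adjusted p of 0.05 in this comparison, nor did any gene of the table (0% called). At an unadjusted p under 0.05 limma had 2 of the 42 higher, Chek1 and Rrm2, and none lower, against 2.33% of all genes higher.

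The helicase genes, named here after their values were seen except for Mcm6, showed the pattern most fully on the recovered counts. Mcm2 had normalised counts of 2553, 1409 and 987 in the control libraries and 3918, 4406 and 4750 in the knockout tail libraries, means of 1650 ± 810 and 4358 ± 418 (SD, n = 3) and a ratio of 2.64. Mcm5 had 1495, 2543 and 1539 in the controls and 5454, 3579 and 5788 in the knockout tail libraries, a ratio of 2.66. The groups did not overlap in either gene. Mcm6 had 4277, 1378 and 2922 in the controls against 4906, 6273 and 10840 in the knockout tail libraries, and the highest control library came close to the lowest knockout library. Mcm3 and Mcm4 had ratios of 2.19 and 2.40. Mcm7, the remaining subunit, overlapped between groups, with 2410, 3128 and 1184 in the controls and 4438, 2378 and 2996 in the knockout tail libraries, a ratio of 1.46. Summed over the 6 subunits, the library totals were 15204, 11074 and 9774 in the controls and 26895, 23188 and 32955 in the knockouts, and each of the latter was above each of the former. In the limma fit of the deposited values the 6 log2 differences were 0.19 to 0.92, and none passed the adjusted threshold. The shift removed from those values had a median of 1.22 for these genes. There, the third knockout tail library lay below the first control in every subunit but Mcm5, with 11.504 against 12.42 in Mcm2.

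**Figure D2:**
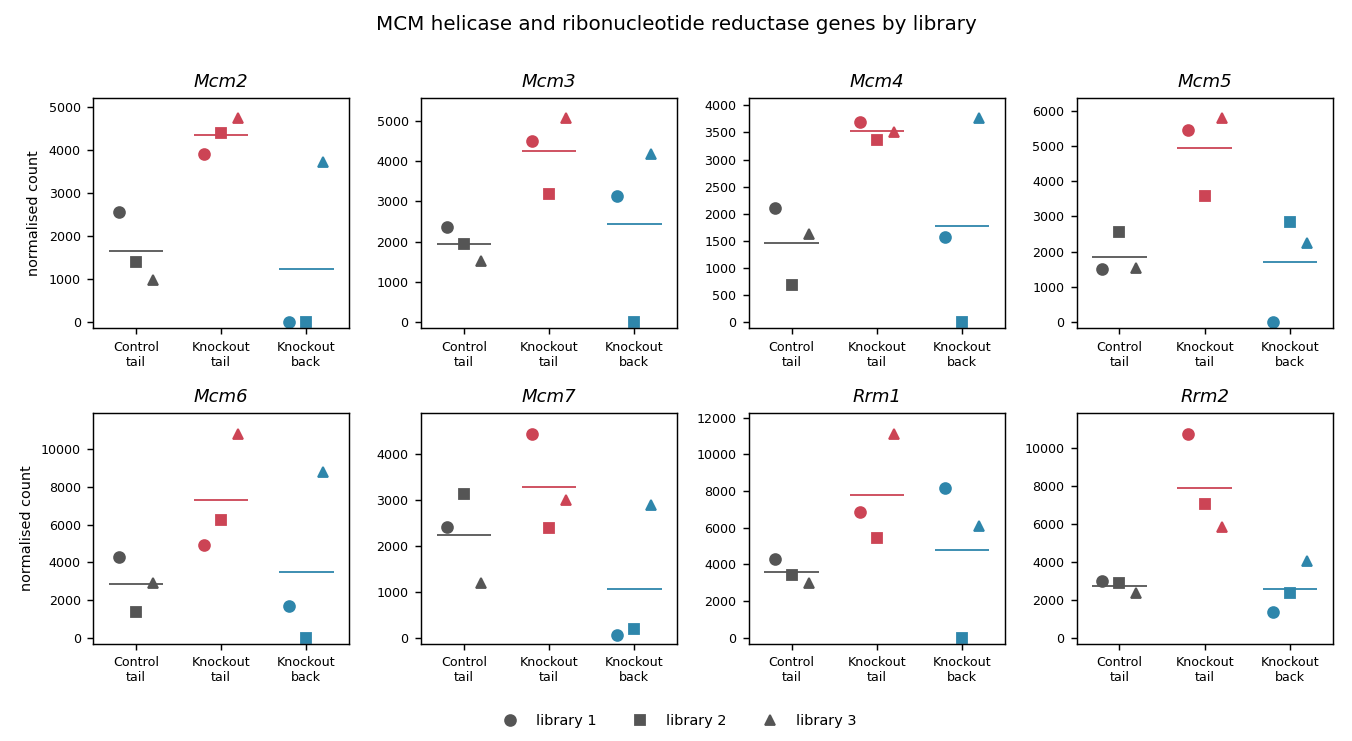
Normalised count (y axis, linear) of the 6 MCM helicase genes and the 2 ribonucleotide reductase genes in each library, with group means as lines and the library number as the marker shape. All knockout tail points lie above all control points in each panel except Mcm7, and the knockout back points lie below all knockout tail points in Mcm2, Mcm5 and Rrm2.

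Both subunits of ribonucleotide reductase followed the helicase. Rrm1, the large catalytic subunit, had 4276, 3436 and 2959 in the controls and 6830, 5418 and 11123 in the knockout tail libraries. Rrm2, the small subunit, had 2961, 2893 and 2333 in the controls and 10741, 7057 and 5805 in the knockout tail libraries, with means of 2729 ± 345 and 7868 ± 2566 (SD, n = 3) and a ratio of 2.88. The lowest knockout tail library was clear of the highest control in both genes. In the limma fit of the deposited values the difference for Rrm2 was 1.19 on the log2 scale (SE 0.36, adjusted p = 0.70). Tyms, which makes thymidylate for the same nucleotide pool, had 2217, 2006 and 2307 in the controls and 3403, 1755 and 1842 in the knockout tail libraries, so the groups overlapped and the ratio was 1.07.

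Chek1, the kinase that halts the cycle when replication forks stall, had the highest ratio among the 42 genes. Its normalised counts were 180, 42 and 82 in the controls and 818, 562 and 523 in the knockout tail libraries, means of 101 ± 71 and 634 ± 160 (SD, n = 3), a ratio of 6.26. The difference in the limma fit was 1.24 (SE 0.25, adjusted p = 0.59) and 1.28 (adjusted p = 0.28) with the library set as a further term. The gene lies at chr9:36708482-36727065 on the minus strand in GRCm38, per GENCODE vM21. The deposited scale flattens low counts, so these log2 differences are smaller than the ratio of the counts.

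Other S phase genes did not separate the groups. Pcna had 12130, 13398 and 11909 in the controls and 12538, 11978 and 8410 in the knockout tail libraries, a ratio of 0.880, with only the third knockout library low. The licensing factors Cdc6 and Cdt1 and the GINS subunit Gins2 had ratios of 0.771, 1.23 and 0.852. E2f1, an activator of S phase transcription, had 1062, 916 and 599 in the controls and 1431, 665 and 24 in the knockout tail libraries. Ccne1, the E-type cyclin that drives entry into S phase with Cdk2, had 1228, 1403 and 860 in the controls and 3166, 846 and 486 in the knockout tail libraries. In both genes the first knockout library was the highest and the third the lowest of the 6 tail libraries. Ccne2 had a ratio of 2.33 with groups that overlapped by little, the highest control at 842 and the lowest knockout libraries at 800 and 808.

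**Figure D3:**
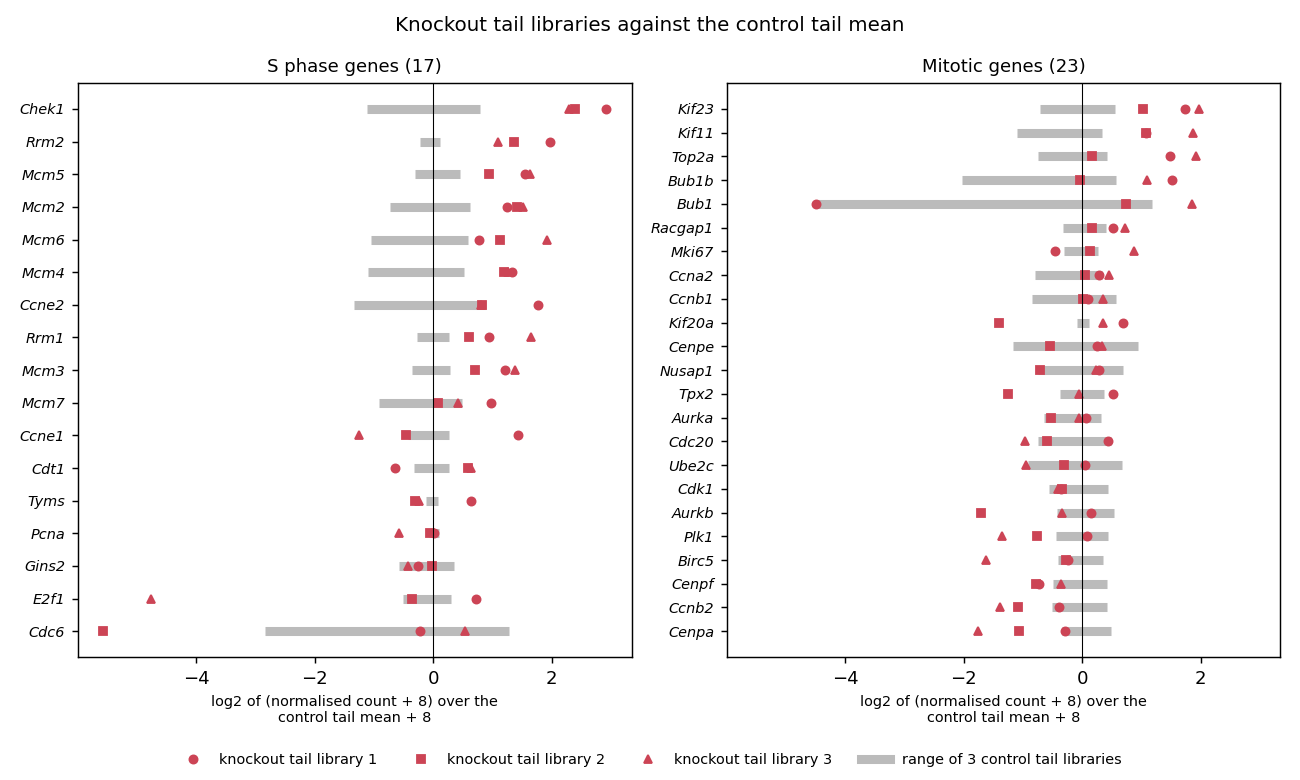
Each knockout tail library (red markers) relative to the control tail mean, as log2 of the normalised count plus 8 over the control mean plus 8, for S phase genes (left) and mitotic genes (right), ordered by the ratio of group means. Grey bars span the 3 control libraries, and 8 S phase and 2 mitotic genes have all 3 red markers to the right of the bar.

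Mitotic genes in tail melanocytes lay on both sides of the controls. Ccnb2, a B-type cyclin and the highest mitotic gene, had 5806, 8065 and 4236 in the controls and 4619, 2844 and 2297 in the knockout tail libraries, a ratio of 0.539 with overlap between 1 knockout and 1 control library. Ccnb1, the other B-type cyclin, had 1992, 5312 and 3442 against 3828, 3619 and 4547, and Cdk1, their kinase partner, had 1721, 3411 and 2467 against 1977, 1992 and 1901. In both genes the knockout libraries lay within the control range. Cdc20, which activates the anaphase promoting complex, had 3638, 5114 and 2175 against 4926, 2410 and 1861, and Birc5, a subunit of the chromosomal passenger complex, had 3175, 5380 and 4116 against 3597, 3483 and 1361. Both overlapped, with the third knockout library the lowest of the 6. Racgap1, which organises the central spindle, had 2125, 3511 and 2320 in the controls and 3787, 2968 and 4405 in the knockout tail libraries.

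The commonly used proliferation markers also overlapped. Mki67, which coats mitotic chromosomes, had 1041, 1277 and 854 in the controls and 770, 1157 and 1939 in the knockout tail libraries, a ratio of 1.22. Top2a, the topoisomerase that untangles replicated DNA, had 463, 1037 and 833 in the controls and 2180, 871 and 2979 in the knockout tail libraries, a ratio of 2.59 in which the second knockout library lay inside the control range. The 2 mitotic genes whose groups did not overlap are motor proteins at low levels: Kif11, which separates spindle poles, with 104, 292 and 295 against 497, 499 and 865, and Kif23, which acts in cytokinesis, with 125, 188 and 312 against 716, 434 and 838. Mitotic kinases Aurka, Aurkb and Plk1 had ratios of 0.680 to 0.900, and those of the passenger and centromere genes Birc5, Cenpa, Cenpe and Cenpf were 0.529 to 1.05. Hmgb2 and Ezh2 had ratios of 0.907 and 1.34 with overlapping groups.

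**Figure D4:**
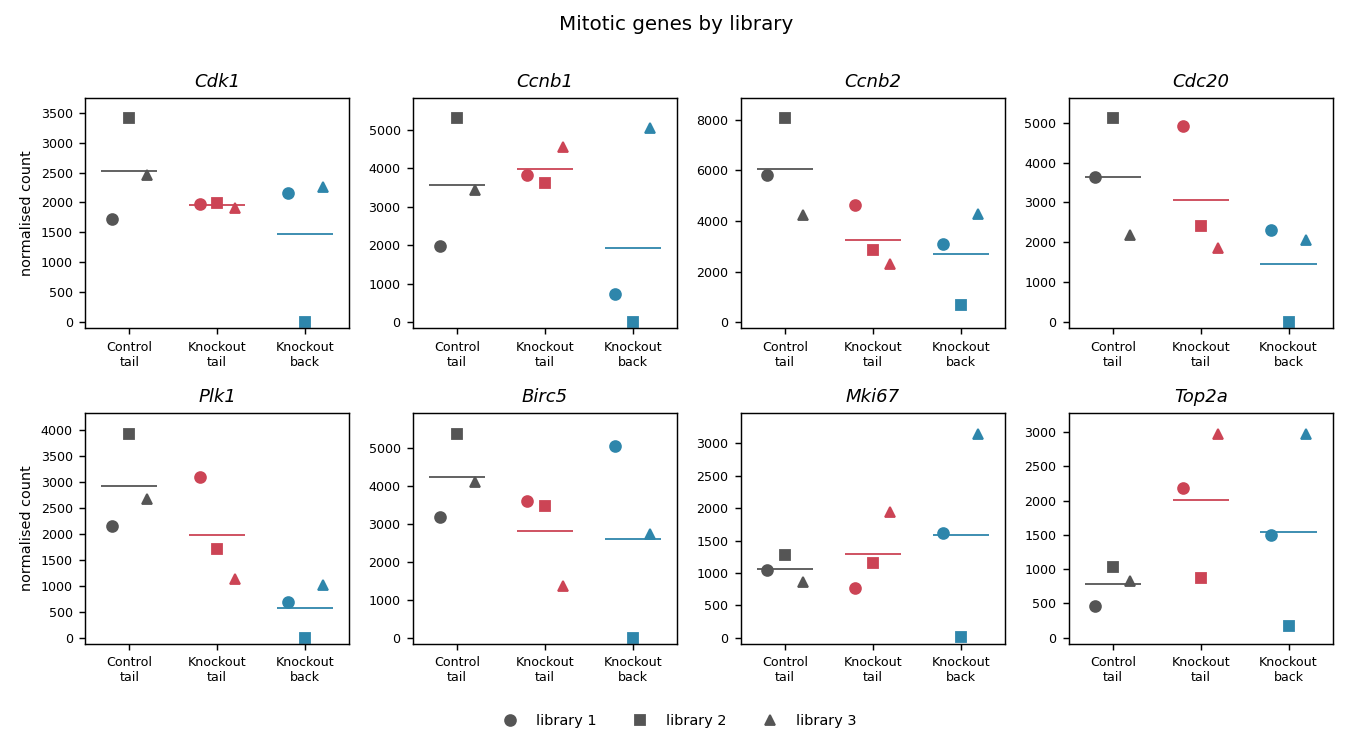
Normalised count (y axis, linear) of 8 mitotic genes in each library, with group means as lines and the library number as the marker shape. Control and knockout tail points overlap in every panel, and the second knockout back library lies near 0 in all but Ccnb2 and Top2a.

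As a description of the lists, the median difference in the limma fit between knockout tail and control tail was 0.56 on the log2 scale for the 17 S phase genes, of which 12 were positive, and −0.25 for the 23 mitotic genes, of which 6 were positive. The median over all genes was −0.05, with 44.4% positive. On the recovered counts, as the log2 ratio of group means plus 8, 13 of the 17 S phase genes were positive with a median of 1.13, and 12 of the 23 mitotic genes with a median of 0.0021, against 52.1% of all genes with a median of 0.04. The order of the libraries depended on the removed shift. In the deposited values, 3 S phase genes (Mcm5, Rrm2 and Chek1) and 0 mitotic genes had all knockout tail libraries above the controls, against 6.44% of all genes. In a fit of the 6 tail libraries alone on the recovered counts with limma-voom, which was added after the data were seen, none of the 42 genes passed the adjusted threshold and the lowest adjusted p among them was 0.24, for Rrm2 (log2 difference 1.505, SE 0.298). At an unadjusted p under 0.05 there, 10 of the 42 genes were higher, where 6.28% of all genes were, and 1 was lower, Ccnb2 (log2 difference −0.87). The 10 were the genes already named for groups that did not overlap in these same counts, so their p-values are no further support.

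Knockout tail libraries 1, 2 and 3 had basal keratinocyte sums of 58438, 26990 and 429892 and MCM sums of 26895, 23188 and 32955, and the part of the keratinocyte transcripts in the result was not tested. Red cell markers, 5 of 5 in the table, summed to 84023 and 105763 in knockout tail libraries 1 and 2, against 632 to 9216 in the controls and 2471 in library 3, and their part in the result was not tested.

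Further genes of the same pathways were read from lists of 67 S phase and 75 mitotic genes. In the tail comparison, 14 of the 67 S phase genes had all knockout tail libraries above the controls and 1 had all below, against 4 above and 3 below of the 75 mitotic genes. Over all genes 9.7% were above and 9.31% below in this way. Those above in the S phase list included Mcm10, Uhrf1, Pole, Brca1, Exo1 and Mybl2. None of the 142 genes passed the adjusted threshold in the group-only limma fit or with the library set as a term, where 0.0614% of all genes did.

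The second comparison set knockout back against knockout tail melanocytes. Of the 42 genes, 8 had all 3 back libraries below all 3 knockout tail libraries: Mcm2, Mcm5, Rrm2, Gins2 and Chek1 in S phase and Bub1b, Plk1 and Racgap1 in mitosis. Over all genes, 10.4% had this order. None had all back libraries above, against 4.55% of all genes. By limma, 2 of the 42 genes were lower in back at an adjusted p under 0.05, Chek1 and Bub1b, and none was higher, where 1.09% of all genes were called lower and 0.411% higher, 1.5% in all. At an unadjusted p under 0.05 limma had 18 of the 42 lower, against 15.2% of all genes. This count draws on the sparse first and second back libraries, where 13 and 31 of the 42 genes lay below 10 normalised counts. Of all genes, 34.8% and 44.8% were that low there. The median log2 difference was −1.54 for S phase genes and −1.16 for mitotic genes, and −0.18 for all genes.

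Chek1 had normalised counts of 5, 0 and 0 in the back libraries, below every tail library of either genotype. The difference from knockout tail was −2.02 on the log2 scale (SE 0.25, limma adjusted p = 0.021), and it was −0.77 (adjusted p = 0.098) against control tail. Bub1b, the spindle checkpoint protein BubR1, had normalised counts of 680, 125 and 791 in the controls, 1532, 518 and 1148 in the knockout tail libraries, and 0 in all 3 back libraries. No fold is given against these zeros, since many other genes were also at 0 in the sparse back libraries. The limma difference from knockout tail was −2.53 (SE 0.43, adjusted p = 0.037), and with the library set as a term it was no longer called (adjusted p = 0.071). Against control tail the limma difference for Bub1b was −1.77 (adjusted p = 0.059), and Bub1b lies at chr2:118598211-118641591 on the plus strand. For Chek1 the call was kept with the library set as a term (adjusted p = 0.033), where 0.294% of all genes were lower, and was lost when the removed shift was put back (adjusted p = 0.056). Leaving out 1 library at a time gave adjusted p-values from 0.012 to 0.086 for Chek1, which was lost without the first control, the first back or any 1 of the knockout tail libraries. For Bub1b they ran from 0.022 to 0.12, and the call was kept only without the second control or the third back library. Without both sparse back libraries, the first and the second, neither gene was called (adjusted p = 0.18 and 0.31).

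**Figure D5:**
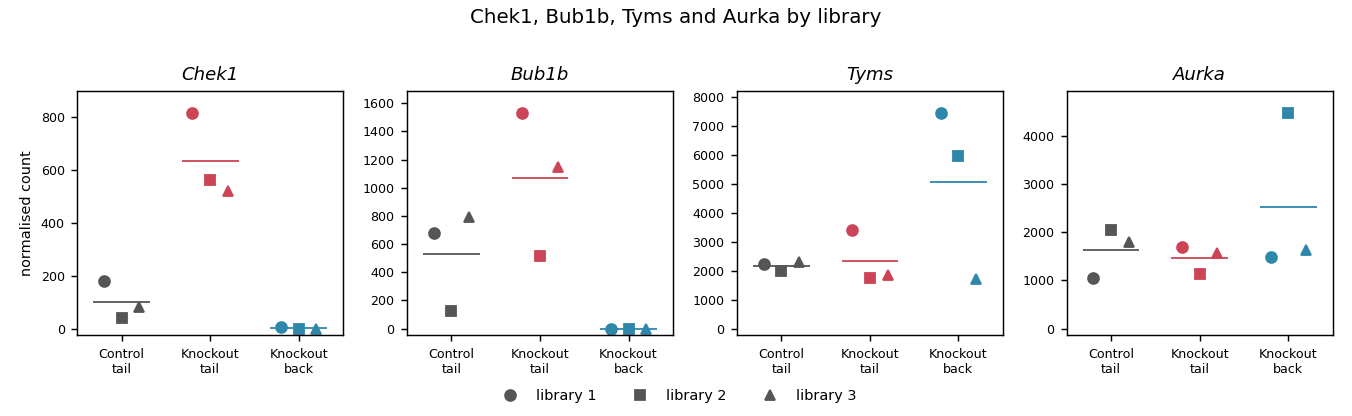
Normalised count (y axis, linear) of Chek1, Bub1b, Tyms and Aurka in each library, with group means as lines and the library number as the marker shape. Chek1 and Bub1b lie at 0 to 5 in all 3 knockout back libraries, whereas Tyms and Aurka each have a back library above every tail library.

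Among the 142 further genes, limma called 3 lower in back than in knockout tail, Chaf1b, Sgo2a and Gtse1, where 1.09% of all genes were called lower. Chaf1b, a subunit of the chromatin assembly factor that follows the replication fork, had normalised counts of 0, 0 and 1372 in the back libraries and 4939, 4134 and 5994 in those of knockout tail, a log2 difference of −3.48 (adjusted p = 0.029). Sgo2a, a shugoshin that protects centromeric cohesion, had 0 in all 3 back libraries and 300, 218 and 276 in those of knockout tail, a difference of −1.42 (adjusted p = 0.028). Gtse1, a microtubule protein of G2 phase, had 0, 0 and 156 in the back libraries and 850, 487 and 1759 in those of knockout tail, a difference of −2.10 (adjusted p = 0.030). With the library set as a term Chaf1b was kept (adjusted p = 0.043) and Gtse1 and Sgo2a were not (adjusted p = 0.053 and 0.057). With 1 library left out the adjusted p-values reached 0.11, 0.11 and 0.12 for Chaf1b, Sgo2a and Gtse1, and without both sparse back libraries they were 0.088, 0.31 and 0.25.

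The third comparison, knockout back against control tail, shares its back libraries with the second. Here too 8 of the 42 genes had all back libraries below the other group, against 15.6% of all genes, and none above, against 7.41%. These were Pcna, Gins2, E2f1, Chek1, Bub1b, Plk1, Cenpa and Racgap1. None of the 42 passed the adjusted threshold in the limma fit, where 0.387% of all genes were higher and 0.614% lower (1% in all), and 16 had an unadjusted p under 0.05, of which 15 were lower in back, against 18.9% of all genes that were lower. The sparse first and second back libraries enter this count too. Of the further genes Chaf1b and Gtse1 were lower at adjusted p-values of 0.040 and 0.046. With 1 library left out these reached 0.14 for both genes. With the library set as a term, where 1.05% of all genes were higher and 2.29% lower, 4 more of the further genes were called. Brca1, a repair factor of S phase, had normalised counts of 2103, 958 and 1883 in the controls and 7951, 12208 and 6537 in the back libraries, a log2 difference of 2.18 (limma adjusted p = 0.033). Ect2, which drives cytokinesis, had 430, 419 and 351 in the controls and 3456, 2466 and 3118 in the back libraries, a difference of 2.02 (limma adjusted p = 0.0498). In the group-only fit the adjusted p-values were 0.0525 and 0.0556, and neither gene was called. Both were thus higher in back in every library, the sparse ones included. Ndc80, a kinetochore protein, and Sgo1, a shugoshin, were lower, each with 0 counts in the sparse back libraries. Their log2 differences were −2.31 and −1.73 (limma adjusted p = 0.0468 for each). In the group-only limma fit Ndc80 and Sgo1 were not called either (adjusted p = 0.0552 and 0.0538).

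The median log2 difference between back and control was −0.90 for S phase genes, −1.40 for mitotic genes and −0.23 for all genes.

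The 3 back libraries did not share 1 pattern. Below 10 normalised counts lay 13 of the 42 genes in the first back library, where 34.8% of all genes did, and 31 of 42 in the second, where 44.8% did. In the third it was 2 of 42, Chek1 and Bub1b, where 12.6% of all genes were that low. The mitotic genes were sparsest in the second back library, with 19 of 23 below 10, against 11 of 17 S phase genes. Cdk1, Ccnb1, Cdc20, Plk1, Birc5 and Racgap1 all had a normalised count of 0 there. In the first back library the same 6 genes had 2151, 740, 2299, 689, 5052 and 1725, and in the third 2256, 5043, 2048, 1019, 2744 and 1632. Over back libraries 1, 2 and 3, Mcm6 had 1672, 0 and 8778, E2f1 0, 0 and 100, and Ccne1 981, 0 and 1000. In the same order Ccnb2 had 3098, 685 and 4265, Mki67 1615, 9 and 3150, and Top2a 1504, 164 and 2971. Neighbouring subunits parted within a library: the first back library had 0 counts of Mcm5 beside 3125 normalised counts of Mcm3, and the second had 2846 of Mcm5 beside 0 of Mcm2, Mcm4 and Mcm6.

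Genes that were present in the sparse back libraries were not always low. At 10 or more normalised counts in both were 8 of the 42 genes: Pcna, Mcm7, Rrm2, Tyms, Top2a, Ccnb2, Aurka and Hmgb2. Tyms had 7460 and 5972 in the first and second back libraries, above every other library, and 1723 in the third. Aurka, a centrosome kinase, had 1497, 4488 and 1628 in back, the second being the highest of the 9 libraries. Pcna had 5954, 4685 and 11125, and Rrm1 had 8186, 9 and 6108. The first library also exceeded the 7 outside this pair in Bub1 and Nusap1, and the second in Cdt1.

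The third back library, read apart, resembled tail libraries in having nearly all of these genes. Its sums were 54287 normalised counts for S phase genes and 49064 for mitotic genes, against 31450 and 27203 in the first back library and 18715 and 6985 in the second. The controls had sums of 35920 to 42447 and 39194 to 63115, and the knockout tail libraries 55858 to 70043 and 33935 to 51855. Of the 42 genes, 18 were above all 3 control libraries in this library, where 37.9% of all genes were, and 11 were below, where 33.2% were. Those above included Mcm2 at 3717, Mcm3 at 4166, Mcm4 at 3765 and Mcm6 at 8778, whereas Mcm5 at 2234 lay within the control range. Mki67 at 3150, Ccna2, the A-type cyclin, at 5208 and Hmgb2 at 13274 were higher there than in any other library. Against the knockout tail libraries 11 of 42 were above and 10 below, where 29.2% and 24.0% of all genes were. E2f1 was at 100, Plk1 at 1019 and Cdc20 at 2048. This library has no replicate that resembles it, so none of these values carries a test.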

How the data were processed

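Trizol-extracted RNA went into SMART-Seq v4 libraries, which amplify small amounts of RNA, and these were sequenced in pairs on a NovaSeq instrument, per the labels' protocols. The submitters' processing notes name DESeq2 and GRCm38, with no version or role. For the aligner, the counting program and strandedness, the tools and settings were not given in the sources used here. All deposited values are on a log2 scale. The authors' deposited values follow the variance-stabilising curve of DESeq2, with 0 counts at 7.98, after removal of a shift between libraries 3 of knockout tail and knockout back and the other 7, as read from the values. Set means were equal within 7.14e-09 in every gene. Undoing both gave whole counts for 16296 genes, within 0.004 of a whole number, and for all 42 members. The main test was limma (3.58.1, R 4.3.3) with trend and robust moderation on the deposited log2 values of all 9 libraries, group as the only term, Benjamini-Hochberg adjusted over 16299 genes. The planned pseudocount was not needed because the file was already on a log scale. Scripts were tested on simulated data. Exon lengths and coordinates are from GENCODE vM21 (GRCm38), counted from 1.

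Members and lists were chosen with earlier results of these data known. Values in every library were given for called members, the 3 highest S phase and 5 highest mitotic genes by mean count, and a fixed set of markers (Mki67, Top2a, Pcna, Cdk1, Ccnb1, Cdc20, E2f1, Ccne1). Other members given in full were chosen after their values were seen. Of the further lists, called genes were named. Those with all knockout tail libraries above or below the controls were named outside that rule. Alternatives were the library set as a term, the shift put back, limma-voom, pseudocounts of 1 and 8 on normalised counts, array weights, quantile normalization, no moderation, a filter at a mean of 10, subsets of libraries and a replicate block. No interval for counting error is printed, and its size was not estimated. Marker lists for T cells, fibroblasts and Schwann cells summed over the libraries to 0 to 1041, 400 to 3228 and 27728 to 89188 normalised counts, with 5 of 8, 4 of 6 and 3 of 5 genes in the table. Differentiated keratinocyte markers, 10 of 10, summed to 20880 to 275083, and no endothelial marker was in the table.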

Additional observations from a re-analysis of the deposited data

How the results depend on the processing

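No fit of knockout tail against control tail called a member. The median difference of S phase genes there was 0.56, with 1.03 by limma-voom, 1.08 with a pseudocount of 1 or 8, 1.06 and 1.08 in the 6 tail libraries alone, and 0.25 to 0.72 with 1 library left out. That of mitotic genes was −0.25, with −0.77 by limma-voom with the library set as a term, −0.12 by limma-voom on all libraries or on the 6 tail libraries, −0.05 with the shift put back and −0.48 to −0.08 with 1 library left out. On the deposited values the S phase and mitotic genes above the controls numbered 3 and 0, against 8 and 2. With 1 tail library left out they were 8 to 9 and 2 to 6, which is no sign of stability, since such a count cannot fall when a library is dropped. The 6 came without the second control or the second knockout tail library. Mcm7 turned negative without the third control (−0.13) and without the first knockout tail library (−0.18), and reached 0.54 at most with 1 library left out.

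For back against knockout tail, the count of 2 called members became 1 with the library set as a term, 0 with the shift put back, 5 with array weights, 13 in the 7 libraries of the larger set, 0 without the first and second back libraries and 0 to 14 with 1 library left out. The highest came without the third back library. The S phase median of −1.54 was −3.88 by limma-voom, −3.46 and −2.96 with pseudocounts of 1 and 8, −0.85 with array weights and −0.74 without the first and second back libraries. The mitotic median of −1.16 was −4.03 by limma-voom, −2.84 with the set term added, −3.76 and −2.76 with the pseudocounts, −0.36 with array weights, −0.21 without both sparse back libraries and −1.63 to −0.32 with 1 library left out. Scales on counts spread low genes more, and moved the median of all genes from −0.18 to −0.74 by limma-voom. Without both sparse back libraries the median of all genes was −0.059.

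For back against control tail, the count of 0 became 1 by limma-voom, with the set term added, with either pseudocount and with quantile normalization, 2 with array weights, 11 in the larger set and 0 to 13 with 1 library left out. The S phase median of −0.90 was −2.58 and −2.17 by limma-voom without and with the set term, −2.62 and −1.88 with the pseudocounts, −0.34 with array weights and −0.24 without both sparse libraries. The mitotic median of −1.40 was −4.04, −3.76, −3.81, −2.85, −0.52 and −0.46 in the same order, and −1.85 to −0.62 with 1 library left out. Apart from these scale changes, the cause was not tested. Without both sparse back libraries the median of all genes was −0.097 in this comparison.

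Same-numbered libraries had correlations of −0.703 to 0.0761 in their deviations from group means, on the deposited values (0 of 9 over 0.1). The −0.703 belongs to libraries 3 of knockout tail and knockout back. It cannot speak on pairing, because the removed shift had set the mean of this pair equal to that of the rest. The numbers were not taken as pairs. With the replicate block, 0 members were called in each comparison, against 2 for back versus knockout tail. The sparse back libraries had 47.7 and 52.8 M counts, and the part of depth in their missing genes was not tested.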
